A study of Mus musculus with 36 samples.

Results

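The messenger RNAs of 10 insulin signalling components were followed in mouse liver after deletion of the insulin receptor in hepatocytes. The genes are Insr, Igf1r, Irs1, Irs2, Pik3r1, Akt2, Foxo1, Foxo3, Grb10 and Grb14. They were taken as every probe whose gene name in the scanner files is one of these 10, which gave 24 probes, and all 10 genes passed the filter on dim probes, among 22916 genes measured. Total liver RNA of male mice aged 11 weeks was hybridised to 36 one-colour arrays. The knockout groups (IRLKO, line IRhep-/-) came from mice with loxP sites around exon 4 of Insr (IRlox/lox) crossed to C57BL/6J TTR-CreTam mice, in which the transthyretin promoter drives a tamoxifen-inducible Cre in liver. The control groups (IRLWT, line IRhep+/+) came from the same cross. Livers were taken at Zeitgeber time 8, 12 or 16 (ZT8, ZT12 and ZT16, in h after lights-on, with lights off at ZT12) from mice with free access to chow, and each of the 6 groups of genotype and time held 6 arrays. The labels describe all mice as untreated. They do not state when tamoxifen was given, or whether the controls carried Cre or the loxP allele, so effects of these and of the deletion cannot be told apart. The labels number the arrays of a group as replicates without naming animals, so the p-values measure the spread between these arrays.

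Insulin binds the receptor encoded by Insr, a tyrosine kinase that shares its downstream pathway with the IGF1 receptor encoded by Igf1r. The active receptor phosphorylates the docking proteins IRS1 and IRS2, which recruit PI 3-kinase, whose main regulatory subunit comes from Pik3r1, and the lipid it makes activates Akt2, the main Akt form of insulin action in liver. Akt phosphorylates the transcription factors FOXO1 and FOXO3 and keeps them out of the nucleus; when insulin is low, FOXO1 acts on Irs2 and on genes of glucose production. GRB10 and GRB14 are adaptor proteins that bind the active receptor and inhibit it.

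The start regions of Irs1 and Irs2 are shown first because these are the 2 genes of the 10 that were higher in knockout liver at ZT8. Each is the 250 bases before the annotated start, from RefSeq on GRCm38.p6, on the gene's own strand (minus for both). Capitals mark the core of the insulin response element bound by FoxO factors, TGTTTTG, and the E-box, CACGTG, bound by helix-loop-helix factors. Both strands were searched, so CAAAACA was counted as the core too. Only these exact letters were searched, so other forms of the core were not counted.
Irs2, chr8:11008930-11009179: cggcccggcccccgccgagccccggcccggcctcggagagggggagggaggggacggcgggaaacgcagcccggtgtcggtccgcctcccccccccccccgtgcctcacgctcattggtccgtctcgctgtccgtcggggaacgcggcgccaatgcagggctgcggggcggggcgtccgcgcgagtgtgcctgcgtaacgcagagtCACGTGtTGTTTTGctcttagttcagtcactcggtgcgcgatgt
Irs1, chr1:82291440-82291689: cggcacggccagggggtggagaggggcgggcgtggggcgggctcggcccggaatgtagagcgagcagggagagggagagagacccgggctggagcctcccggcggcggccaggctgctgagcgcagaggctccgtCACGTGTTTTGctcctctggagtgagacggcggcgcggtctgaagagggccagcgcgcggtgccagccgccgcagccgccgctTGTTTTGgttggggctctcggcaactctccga
The Irs2 region held 1 core, 31 to 37 bases before the start, and 1 E-box beside it at 39 to 44 bases. The Irs1 region held 2 cores, at 26 to 32 and at 105 to 111 bases, and 1 E-box at 110 to 115 bases that overlaps the farther core. The 9 genes matched by symbol (all but Insr) had 14 regions, and those of Irs1 and Irs2 were the 2 with an exact match to either motif. A region of Pik3r1, which was lower in knockout, held the near match TATTTTG, which was not counted. Igf1r, called higher in knockout at ZT12 and ZT16, thus held neither, and Irs1 was called higher at ZT8 only. Of 32851 regions of this length in the genome, 5.56% held the core, 6.02% the E-box and 0.295% both. A match is a run of letters and does not show binding.

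The 60 bases of 6 probes show what the arrays read, in lower case throughout because the whole run hybridises. The Irs2, Pik3r1 and Foxo3 probes belong to genes whose differences were large or changed with time, the Foxo3 and Insr probes not being the brightest of their genes, and the Akt2 probes gave results that differed from each other.
Insr, chr8:3159473-3159532: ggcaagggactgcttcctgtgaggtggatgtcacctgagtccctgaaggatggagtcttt
Irs2, chr8:11004490-11004549: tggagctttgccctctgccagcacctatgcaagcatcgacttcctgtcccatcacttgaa
Pik3r1, chr13:102459406-102460448: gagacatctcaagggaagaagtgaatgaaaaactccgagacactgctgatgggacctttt
Foxo3, chr10:41916349-41916408: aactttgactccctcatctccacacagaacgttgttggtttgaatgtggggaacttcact
Akt2, chr7:28421973-28422113: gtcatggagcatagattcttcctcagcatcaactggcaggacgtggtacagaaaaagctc
Akt2, chr7:28418226-28418285: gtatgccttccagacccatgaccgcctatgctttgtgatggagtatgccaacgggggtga
These positions are on mm9, as the scanner files give them, on the minus strand for Insr, Irs2, Pik3r1 and Foxo3 and the plus strand for Akt2. The Pik3r1 probe covers a genomic span of 1043 bases and the first Akt2 probe one of 141 bases, so both skip genomic sequence between their ends.

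Levels are log2 processed intensity minus the array's 75th percentile, so 0 is that percentile, and a level compares groups for 1 probe but not 1 gene with another. The 75th percentile lay between 311 and 525 intensity units, 53.7% to 63.1% of spots were well above background, and 0 spots were saturated. The probe that represents each gene, the brightest of its probes, was well above background on all 36 arrays for all 10 genes. A gene is called when its limma p, adjusted by Benjamini-Hochberg over the 22916 genes, is below 0.05. One array, knockout ZT8 replicate 3, stood apart on the third principal component (6.72% of the variance), at -68.7 where the other arrays lay between -33.9 and 42.4. Hepatocyte markers were bright, as the liver label says, and their summed linear level (6 genes, in units of the 75th percentile) had medians of 2992 in control and 2234 in knockout at ZT8, 3128 and 2607 at ZT12, and 3166 and 2537 at ZT16. Of these 6, Alb and Ttr were called lower at every time, and Tat higher at ZT12, while Apoa1, Cps1 and Cyp2e1 were called at no time. The sum is weighted to the brightest probes, here Alb, Cyp2e1 and Ttr. The sum of 8 Kupffer cell and macrophage markers had medians of 48.4 and 110 at ZT8, 53.5 and 130 at ZT12, and 54.0 and 89.5 at ZT16, with 2, 4 and 3 of the 8 called higher and ranges that overlapped. Such a sum is weighted to the brightest probes, here Marco (log2 ratios 1.73, 2.28 and 1.40, the last not called) and Cd5l (0.72, 1.00 and 0.93), and C1qa, C1qb and Vsig4 were called at no time. The sum of 8 endothelial markers had medians of 65.2 and 74.1, 56.6 and 82.1, and 61.5 and 87.6, with 1, 7 and 6 called higher. Stellate cell and fibroblast markers numbered 8, with 0, 4 and 3 called higher. Of 5 bile duct markers 1 was called lower at ZT12 and 1 higher at ZT16. The 3 lymphocyte markers measured gave 1, 2 and 2 higher calls and 1 lower call at ZT12, and the 3 red cell markers gave 0, 1 and 2 higher calls and 1 lower call at each time. Of 3 fat markers 1 was called lower at each time, as was the 1 pancreas marker measured, Cela1. The other pancreas markers, Cpa1, Pnlip and Cela3b, did not pass the filter, so Cela1 alone does not stand for pancreas tissue. These counts stand beside 16.7%, 19.6% and 20.0% of all genes called higher at ZT8, ZT12 and ZT16. The shares called lower were 18.7%, 22.7% and 20.1%. In bulk liver RNA, fewer cells of a type and less RNA per cell cannot be told apart.

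At ZT8, 6 of the 10 genes were called between knockout and control, where 35.5% of all genes measured were called. Insr, the gene deleted by design, is among the genes called at each time. It is also part of the medians and overlap counts below. The 2 that were higher (16.7% of all genes) were Irs1 and Irs2, and the 4 that were lower (18.7% of all genes) were Insr, Pik3r1, Foxo3 and Grb14. At ZT12, 6 were called, beside 42.3% of all genes. Igf1r and Irs2 were the 2 higher (19.6% of all genes), and Insr, Pik3r1, Foxo3 and Grb14 were the 4 lower (22.7% of all genes). At ZT16, 7 were called, beside 40.0% of all genes. Igf1r and Irs2 were the 2 higher (20.0% of all genes), and Insr, Pik3r1, Foxo1, Foxo3 and Grb14 the 5 lower (20.1% of all genes). Irs2 in the higher direction and Insr, Pik3r1, Foxo3 and Grb14 in the lower made 5 genes called with 1 sign at all 3 times, as 19.5% of all genes were. The median log2 ratio of the 10 genes was 0.02, -0.16 and -0.14 at ZT8, ZT12 and ZT16, beside 0.01, -0.02 and 0.00 over all genes. Their median absolute log2 ratio was 0.54, 0.45 and 0.48, beside 0.25, 0.29 and 0.28 over all genes. Knockout and control arrays did not overlap for 4 of the 10 genes in the ZT8 livers, 5 in the ZT12 livers and 4 in the ZT16 livers, beside 15.5%, 21.4% and 19.2% of all genes. Averaged over the 3 times, 3 of the 10 genes were higher and 5 lower, so 8 in all, beside 60.0% of all genes, and Akt2 and Grb10 were the 2 not called. With knockout ZT8 replicate 3 left out, the ZT8 log2 ratios were -1.67 for Insr, 0.82 for Irs1, 2.53 for Irs2, 0.14 for Igf1r, -0.76 for Pik3r1, 0.14 for Akt2 (adjusted p = 0.082), 0.0086 for Foxo1, -0.40 for Foxo3, 0.44 for Grb10 and -0.55 for Grb14, and 6 of the 10 genes were called. Within each of the 3 wash batches of the labels, each of which held arrays of all 6 groups, every gene called between genotypes at a time had the same sign of difference as in the pooled fit.

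**Figure D1:**
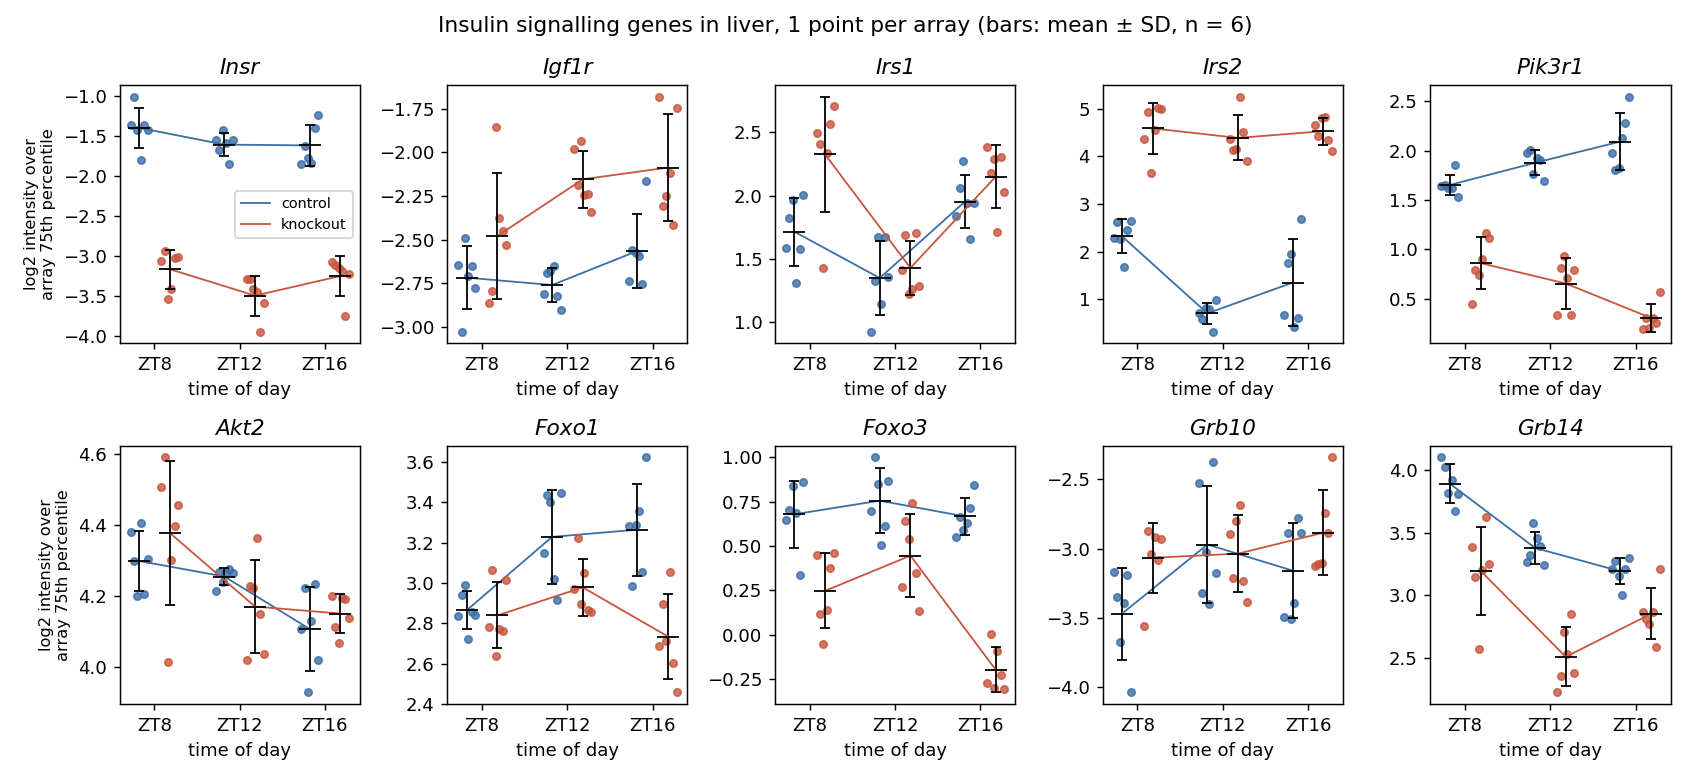
Levels of the 10 genes on each array (log2 intensity over the array's 75th percentile, y axis) by time of day (x axis) in control and knockout liver; points are arrays and bars the mean ± SD of 6 arrays. Insr, Irs2 and Pik3r1 are separate between genotypes at all 3 times, while Irs1, Akt2, Foxo1 and Grb10 overlap at all 3.

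Insr, the deleted gene, was lower in every knockout array than in any control array. At ZT8 the control arrays ranged from -1.81 to -1.01 around a median of -1.40 and the knockout arrays from -3.54 to -2.94 around -3.05. At ZT12 the ranges were -1.86 to -1.44 in control (median -1.58) and -3.95 to -3.29 in knockout (median -3.44). At ZT16 they were -1.85 to -1.24 in control (median -1.70) and -3.75 to -3.08 in knockout (median -3.18). A gap separated the genotypes at each time, while the times overlapped within a genotype and no change with time was called. The knockout level was 29.3%, 27.2% and 31.8% of control at ZT8, ZT12 and ZT16 (log2 ratios -1.77, -1.88 and -1.65, each SE 0.13), with limma adjusted p of 1.17e-11, 2.15e-12 and 2.89e-11. With normexp background correction the log2 ratios were -0.98, -1.02 and -0.92, and in the authors' deposited table the same fit gave -1.33, -1.26 and -1.19, so the size of the difference depends on the setting. The second Insr probe, printed above, was well above background on all 6 control arrays of each time but on 4, 1 and 4 of the 6 knockout arrays, with log2 ratios of -0.95, -1.46 and -0.59. It sits at base 4038 and the brighter probe at base 4745 of the same transcript record. The files do not give the exon each reads, so intact transcript and transcript without exon 4 cannot be told apart, nor can Insr left in hepatocytes and Insr of other liver cells.

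Igf1r, the receptor for IGF1, which is scarce in adult hepatocytes, was higher in knockout liver at ZT12 and ZT16. Its ZT12 control arrays lay between -2.90 and -2.65 (median -2.75) and its knockout arrays between -2.34 and -1.93 (median -2.21), without overlap. At ZT16 control ranged from -2.76 to -2.17 (median -2.59) and knockout from -2.42 to -1.68 (median -2.18), and the groups overlapped through 1 control array, replicate 6. The log2 ratio was 0.59 ± 0.13 (SE, n = 6 per group) at ZT12 and 0.45 ± 0.13 at ZT16, or 151% and 136% of control, with limma adjusted p of 6.2e-04 and 0.0078. With normexp background correction these ratios were 0.27 and 0.23 (adjusted p = 0.0082 and 0.025), and in the authors' deposited table the same fit gave 0.40 and 0.32 (adjusted p = 0.0021 and 0.0128). At ZT8 control ranged from -3.03 to -2.49 and knockout from -2.87 to -1.85, and the ratio was 0.26 (95% interval -0.02 to 0.53), which did not pass (adjusted p = 0.137). With knockout ZT8 replicate 3 left out it was 0.14, and with replicate 2 of that group left out it was 0.35 and passed (adjusted p = 0.038), as did the mean of all Igf1r probes at 0.50 (adjusted p = 0.023). All 4 Igf1r probes had positive mean ratios over the 3 times, from 0.36 to 0.88, and 3 of the 4 were called. The 2 dimmest of the 4 were well above background on 3 of the 6 control arrays at each time. The second brightest probe passed at ZT12 (0.84, limma adjusted p = 4.9e-04 over all probes) but not at ZT16 (0.38, adjusted p = 0.107). The dimmest passed at neither time (0.09 and 0.47). At ZT8 the 2 dimmest had 0.85 and 0.50 and the 2 brightest 0.26 and 0.38. The ZT8 mean of all probes thus leans on signals near background. In knockout Igf1r was 0.38 higher at ZT16 than at ZT8 (limma adjusted p = 0.031). These 2 times overlapped, and an exact two-sided permutation test gave p = 0.0736. More endothelial and stellate cell markers were called higher at ZT12 and ZT16 than at ZT8, and their part in the Igf1r difference was not tested. The genotype effect on Igf1r did not pass the F test for a difference between times (adjusted p = 0.52).

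Irs2, the docking protein that carries much of the insulin signal of liver around feeding, had the largest difference of the 10 genes. Control arrays ranged from 1.68 to 2.64 (median 2.37) at ZT8, 0.32 to 0.98 (median 0.76) at ZT12 and 0.43 to 2.68 (median 1.22) at ZT16. Knockout arrays ranged from 3.65 to 5.02 (median 4.75), 3.90 to 5.25 (median 4.26) and 4.12 to 4.83 (median 4.55) at the same times. Every knockout array was thus above every control array, also across times. The control arrays at ZT16 were split, with 3 at 0.43, 0.62 and 0.67 and 3 at 1.77, 1.95 and 2.68. Knockout liver held 491% of the control level at ZT8 (log2 ratio 2.30 ± 0.29 SE), 1255% at ZT12 (3.65 ± 0.29) and 883% at ZT16 (3.14 ± 0.29), with limma adjusted p of 3.3e-07, 4.2e-11 and 7.3e-10. Within wash batches the difference ranged from 1.76 to 2.74 at ZT8, 3.11 to 4.06 at ZT12 and 1.78 to 3.69 at ZT16. In control liver Irs2 fell by 1.61 on the log2 scale from ZT8 to ZT12 (adjusted p = 2.1e-04), without overlap between the times, and its ZT16 level differed from ZT8 by -0.93 (adjusted p = 0.017). In knockout liver the same differences were -0.26 (95% interval -0.87 to 0.35) and -0.09 (95% interval -0.69 to 0.51), and neither passed. The genotype effect at ZT12 minus that at ZT8 was 1.35 ± 0.42 (SE) and did not pass (adjusted p = 0.11), nor did the F test over times (adjusted p = 0.090). Without control ZT16 replicate 6, the F test passed (adjusted p = 0.032).

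Irs1, the other main docking protein, was higher in knockout at ZT8. Its control arrays ranged from 1.31 to 2.01 (median 1.71) and its knockout arrays from 1.43 to 2.71 (median 2.45), and the groups overlapped through knockout replicate 3, the array that stood apart. The log2 ratio was 0.64 ± 0.15 (SE), or 156% of control, with a limma adjusted p of 0.0013 and an exact two-sided permutation p of 0.0238. Without that array the ratio was 0.82 (adjusted p = 9.6e-06). At ZT12 control ranged from 0.92 to 1.67 and knockout from 1.22 to 1.70, with a ratio of 0.05 (95% interval -0.26 to 0.36). At ZT16 control ranged from 1.65 to 2.27 and knockout from 1.71 to 2.39, with a ratio of 0.22 (95% interval -0.09 to 0.53). Neither passed, but the F test for a difference of the genotype effect between times did not pass either (adjusted p = 0.168); it did without knockout ZT8 replicate 3 (adjusted p = 0.0075). In knockout Irs1 fell by 0.96 on the log2 scale from ZT8 to ZT12 (adjusted p = 7.8e-05) and rose by 0.755 to ZT16 (adjusted p = 9.4e-04), the last step without overlap. In control it rose by 0.58 from ZT12 to ZT16 (adjusted p = 0.027), a call lost without control ZT12 replicate 1, 4 or 6 or control ZT16 replicate 2, 3 or 6.

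**Figure D2:**
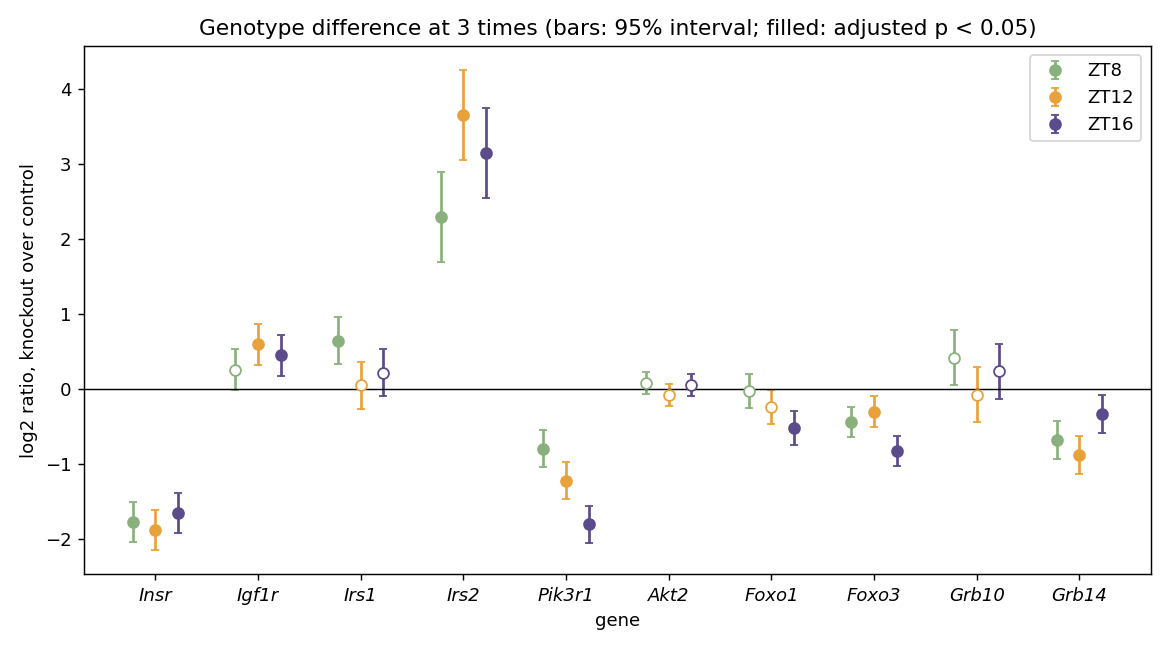
Log2 ratio of knockout over control for each of the 10 genes at ZT8, ZT12 and ZT16, with 95% intervals from the limma fit; filled points have an adjusted p below 0.05. Irs2 lies at 2.30, 3.65 and 3.14, and Pik3r1 goes from -0.80 at ZT8 to -1.80 at ZT16.

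Pik3r1, which encodes the regulatory subunits that stabilise the catalytic subunits of PI 3-kinase and hold them inactive until bound to IRS proteins, was lower in knockout at every time. Control arrays ranged from 1.53 to 1.85 (median 1.63) at ZT8, 1.69 to 2.01 (median 1.92) at ZT12 and 1.80 to 2.55 (median 2.05) at ZT16. Knockout arrays ranged from 0.45 to 1.17 (median 0.845), 0.34 to 0.94 (median 0.75) and 0.19 to 0.57 (median 0.28). No knockout array reached the lowest control array of any time. The knockout level was 57.6%, 42.9% and 28.6% of control, with log2 ratios of -0.80, -1.22 and -1.80 (each SE 0.12) and limma adjusted p of 6.4e-06, 3.2e-09 and 9.8e-13. From ZT8 to ZT16 control rose by 0.46 (adjusted p = 0.0054) and knockout fell by 0.55 (adjusted p = 7.6e-04). The genotype effect at ZT16 minus that at ZT8 was -1.01 ± 0.17 (SE, adjusted p = 2.8e-04), and the F test over times gave an adjusted p of 9.7e-04.

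Akt2, the kinase below PI 3-kinase, did not pass at any time on its brightest probe, with log2 ratios of 0.08 (95% interval -0.07 to 0.22), -0.08 (-0.23 to 0.07) and 0.06 (-0.09 to 0.20). Its arrays lay between 3.93 and 4.59 over the 6 groups, and the genotypes overlapped at each time. The call depended on scaling: with quantile normalization the ZT12 ratio was 0.03 and the ZT16 ratio 0.18, which passed (adjusted p = 0.0167), and the authors' deposited table gave 0.07 and 0.19 in the same fit, the second of which passed (adjusted p = 0.0175). The 3 Akt2 probes disagreed. The first Akt2 probe printed above had ratios of -0.32, -0.34 and -0.26 at the 3 times and a mean of -0.31 ± 0.05 (SE, adjusted p = 1.3e-06 over all probes). On that probe control arrays ranged from -0.22 to 0.18 (median -0.07) and knockout arrays from -0.58 to -0.03 (median -0.42) at ZT8, which overlapped. The second printed probe gave a mean of -0.08 ± 0.06 and did not pass (adjusted p = 0.243). With the mean of the 3 probes the Akt2 ratio was -0.05 at ZT8, -0.18 at ZT12 (adjusted p = 0.043) and -0.13 at ZT16. By its brightest probe Akt2 fell by 0.21 in control (adjusted p = 0.032) and by 0.22 in knockout (adjusted p = 0.018) from ZT8 to ZT16. The other probes did not both follow. Between these times the mean of the first printed probe went from -0.05 to -0.13 in control and from -0.39 to -0.36 in knockout. That of the second went from -1.69 to -1.61 in control and from -1.62 to -1.79 in knockout.

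Foxo1, the FoxO factor best known for driving glucose production genes in liver, was lower in knockout at ZT16. There control arrays ranged from 2.98 to 3.62 (median 3.28) and knockout arrays from 2.46 to 3.05 (median 2.70), which overlapped slightly. The ratio was -0.52 ± 0.11 (SE), or 69.6% of control (limma adjusted p = 3.9e-04). At ZT12 it was -0.25 (95% interval -0.47 to -0.02) and did not pass (adjusted p = 0.076), and it passed without knockout ZT12 replicate 2 (-0.29, adjusted p = 0.041) or control ZT12 replicate 5 (-0.32, adjusted p = 0.027). At ZT8 it was -0.03 (95% interval -0.26 to 0.20), and its sign turned with quantile normalization, in the authors' deposited table, with the mean of both probes and without knockout ZT8 replicate 3. Foxo1 rose in control by 0.36 from ZT8 to ZT12 (adjusted p = 0.023), and its ZT16 level was 0.39 above ZT8 (adjusted p = 0.0083). In knockout the ZT16 level differed from ZT8 by -0.10, which did not pass. The genotype effect at ZT16 minus that at ZT8 was -0.49 ± 0.16 (SE, adjusted p = 0.044), and the F test over the 3 times did not pass (adjusted p = 0.11). Both Foxo1 probes had negative mean ratios over the 3 times, -0.27 and -0.21.

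Foxo3, a second FoxO factor that Akt keeps out of the nucleus, was lower at all 3 times. Control arrays ranged from 0.34 to 0.86 (median 0.69) at ZT8, 0.51 to 1.00 (median 0.77) at ZT12 and 0.55 to 0.85 (median 0.65) at ZT16. Knockout arrays ranged from -0.05 to 0.46 (median 0.26), 0.14 to 0.74 (median 0.44) and -0.31 to 0.01 (median -0.25). The genotypes overlapped at ZT8 and ZT12 and were separate at ZT16. The log2 ratios were -0.44, -0.30 and -0.83 (each SE 0.10), or 73.8%, 81.1% and 56.1% of control, with limma adjusted p of 7.9e-04, 0.014 and 6.4e-08. The ZT12 call was lost without knockout ZT12 replicate 6 (-0.20, adjusted p = 0.080) and in a fit of only the groups compared (-0.32, adjusted p = 0.068). In knockout Foxo3 fell by 0.65 from ZT12 to ZT16 (adjusted p = 3.1e-05), without overlap, and in control the same step was -0.12 and did not pass. The F test over times passed (adjusted p = 0.028), and the genotype effect at ZT16 minus that at ZT12 was -0.53 ± 0.14 (SE, adjusted p = 0.038). Without knockout ZT16 replicate 1 or control ZT16 replicate 6 the F test gave adjusted p of 0.058 and 0.073, and without a filter on dim probes 0.060. These values are of the brightest Foxo3 probe, which is not the one printed above. The printed probe had ratios of -0.41, -0.33 and -0.83, of which the ZT12 ratio did not pass (adjusted p = 0.072 over all probes). The third Foxo3 probe was well above background on all arrays but 4 of the 6 knockout arrays at ZT16, so its ZT16 ratio (-1.49) is set partly by background; its ratios at ZT8 and ZT12 were -0.60 and -0.76.

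Grb14, an adaptor that binds the activated insulin receptor and blocks its kinase, was lower in knockout at all 3 times. Control arrays ranged from 3.67 to 4.10 (median 3.86) at ZT8, 3.24 to 3.58 (median 3.36) at ZT12 and 3.01 to 3.30 (median 3.21) at ZT16. Knockout arrays ranged from 2.57 to 3.63 (median 3.22), 2.23 to 2.85 (median 2.46) and 2.59 to 3.21 (median 2.84). The genotypes were separate at ZT8 and ZT12 and overlapped at ZT16. The log2 ratios were -0.68, -0.88 and -0.33 (each SE 0.12), or 62.5%, 54.3% and 79.3% of control, with limma adjusted p of 6.9e-05, 1.2e-06 and 0.0315. Without knockout ZT8 replicate 3, the ZT8 ratio was -0.55. The ZT16 call was lost with quantile normalization (-0.24, adjusted p = 0.112), in the authors' deposited table (-0.20, adjusted p = 0.188) and without a filter on dim probes (adjusted p = 0.056). It was also lost without knockout ZT16 replicate 1, 2 or 5 or control ZT16 replicate 2, 5 or 6 (adjusted p from 0.052 to 0.096). Grb14 fell in control by 0.51 from ZT8 to ZT12 (adjusted p = 0.0042) and by 0.70 from ZT8 to ZT16 (adjusted p = 6.1e-05). In knockout it fell by 0.71 from ZT8 to ZT12 (adjusted p = 2.5e-04) and by 0.36 from ZT8 to ZT16 (adjusted p = 0.029). These changes are of the brightest probe, and the dimmest of the 3 that passed the filter did not follow them. Its means at ZT8, ZT12 and ZT16 were -1.34, -1.43 and -1.29 in control. In knockout they were -2.05, -2.09 and -1.54, so its ZT16 level was above ZT8. All 3 Grb14 probes that passed the filter were lower, with mean ratios of -0.63, -0.69 and -0.54. The F test over times did not pass (adjusted p = 0.104), and it did without knockout ZT8 replicate 3 (adjusted p = 0.030) or without knockout ZT16 replicate 5 (adjusted p = 0.04999).

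Grb10, the related adaptor that also inhibits the insulin and IGF1 receptors, did not pass at any time on its brightest probe. Its ZT8 control arrays ranged from -4.04 to -3.17 (median -3.37) and its knockout arrays from -3.56 to -2.87 (median -2.98), with overlap. The log2 ratios were 0.41 (95% interval 0.05 to 0.78, adjusted p = 0.073), -0.08 (-0.45 to 0.29) and 0.23 (-0.14 to 0.60). The ZT8 ratio passed without knockout ZT8 replicate 1 (0.49, adjusted p = 0.037) and without control ZT8 replicate 1 (0.48, adjusted p = 0.046). It was 0.14 with normexp background correction (adjusted p = 0.30) and 0.19 in the authors' deposited table (adjusted p = 0.169). The second Grb10 probe was not well above background on any of the 6 control arrays at ZT8 and was so on 13 of 36 arrays in all, so its plotted value is set largely by background.

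**Figure D3:**
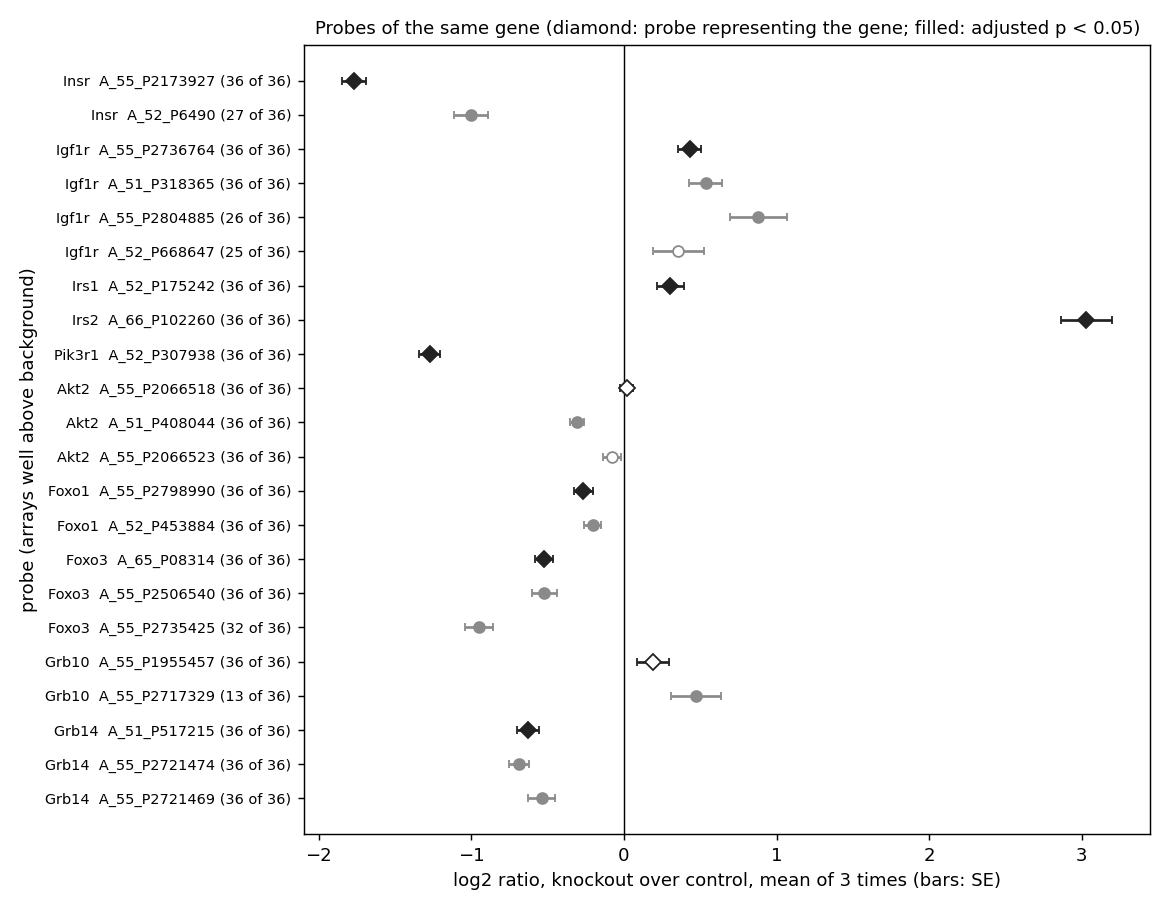
Log2 ratio of knockout over control, averaged over the 3 times with its SE, for each of the 22 probes of the 10 genes that passed the filter; diamonds are the brightest probe of a gene and filled symbols have an adjusted p below 0.05. The probes of Insr, Igf1r, Foxo1, Foxo3 and Grb14 lie on 1 side of 0 within each gene, and those of Akt2 spread from -0.31 to 0.02.

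Of the 24 probes, 22 passed the filter, and 18 of these were called in the mean over the 3 times, 6 higher and 12 lower, beside 58.0% of all probes; the higher ones include the second Grb10 probe. The 2 that did not pass, of Grb10 and Grb14, were each well above background on 1 array. Irs1, Irs2 and Pik3r1 were read by 1 probe each, so their values rest on that probe.

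The counts by time of day are of the brightest probe of each gene, which not all other probes of Akt2 and Grb14 followed. In control, 3 of the 10 genes changed from ZT8 to ZT12 (14.8% of all genes), namely Irs2, Grb14 and Foxo1. From ZT12 to ZT16 in control 1 changed, Irs1 (3.62% of all genes), and from ZT8 to ZT16 5 did, Irs2, Pik3r1, Akt2, Foxo1 and Grb14 (26.6% of all genes). In knockout Irs1 and Grb14 were the 2 that changed from ZT8 to ZT12 (13.2% of all genes), and Irs1 and Foxo3 the 2 from ZT12 to ZT16 (12.6% of all genes). From ZT8 to ZT16 in knockout 5 changed, Igf1r, Pik3r1, Akt2, Foxo3 and Grb14 (28.9% of all genes). Without knockout ZT8 replicate 1, 2 or 5 that last count was 3, and without knockout ZT8 replicate 3 the ZT8 to ZT12 count in knockout was 5. Without control ZT16 replicate 1 the ZT8 to ZT16 count in control was 3, and without knockout ZT12 replicate 5 the ZT12 to ZT16 count in knockout was 4. The genotype effect differed between times for 2 of the 10 genes by the F test, Pik3r1 and Foxo3 (8.46% of all genes); this count was 4 without knockout ZT8 replicate 3 and 1 without knockout ZT16 replicate 1. Between pairs of times, limma called 0 of the 10 for ZT12 minus ZT8 (1.25% of all genes), where Irs1, Irs2 and Pik3r1 had unadjusted p of 0.00987, 0.00295 and 0.0209. Foxo3 was the 1 gene for ZT16 minus ZT12 (1.96% of all genes), and Pik3r1 and Foxo1 were the 2 for ZT16 minus ZT8 (9.74% of all genes).

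The genes whose 6 group means followed those of a component most closely were found by the root mean square difference of centred group means, in log2 units, over 17801 candidates well above background on all arrays. This was done for the 4 components whose means spanned at least 1 log2 unit. For Pik3r1 (span 1.79) they were Tmem14a (0.06), Herpud1 (0.10) and Mgmt (0.11). For Grb14 (span 1.38) they were Zfpm1 (0.07), Eef2k (0.09) and the record TC1720293 (0.10). For Insr (span 2.10) they were Necab1 (0.13), an unnamed interval of chromosome 7 (0.13) and Hnf1aos1 (0.15). For Irs2, with the widest span (3.88), the nearest were farther off, DXBay18 (0.34), Cables1 (0.35) and 4833411C07Rik (0.36).

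Other genes of the pathway were taken from 7 lists of 83 genes, of which 79 were measured; Ins1, Ins2, Igf2 and Irs4 did not pass the filter. At ZT8 32 of the 79 were called (40.5%), 14 higher and 18 lower. At ZT12 42 were called (53.2%), 24 higher and 18 lower, and at ZT16 35 (44.3%), 19 higher and 16 lower. These shares stand beside 35.5%, 42.3% and 40.0% of all genes, and the median log2 ratio of the 79 was 0.03, 0.03 and 0.01. By direction, 16.7%, 19.6% and 20.0% of all genes were called higher and 18.7%, 22.7% and 20.1% lower. The counts of each list below stand beside these shares. With the mean of all probes of each gene the ZT8 count was 21. Among ligands and receptors 2, 3 and 2 of the 3 measured were lower. Igf1, the growth factor that liver releases into blood, had log2 ratios of -0.55, -0.31 and -0.72, called at each time. Igf2r, the receptor that clears IGF2, had -0.31, -0.65 and -0.26, also called at each time. Insrr, the insulin receptor-related receptor, had -0.26, -0.45 and -0.25 and was called at ZT12.

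Among 15 adaptors measured, 4, 8 and 4 were higher and 1, 1 and 0 lower at ZT8, ZT12 and ZT16. Dok1, a docking protein of tyrosine kinases, was higher, with log2 ratios of 0.62, 1.01 and 0.78, and so was its relative Dok4, with 0.38, 0.57 and 0.59. Cblb, a ubiquitin ligase that acts on receptors and PI 3-kinase, was higher at ZT8 and ZT12 (0.83 and 0.46), and its ZT16 ratio of 0.37 did not pass (adjusted p = 0.064). Of 9 further PI 3-kinase subunits, 1, 1 and 1 were higher and 2, 1 and 1 lower. The higher one was Pik3cd, the catalytic subunit best known from leukocytes, with 1.097, 0.89 and 0.89 (each SE 0.23). The Kupffer cell marker sum was higher too, and its part in the Pik3cd difference was not tested. Pik3cb, a catalytic subunit found in most cells, was lower at ZT8 and ZT12 (-0.29 and -0.28), and Pik3r3, another regulatory subunit, was lower at ZT16 (-0.55).

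Of 21 genes of the Akt and mTOR arm, 3, 7 and 7 were higher and 2, 5 and 6 lower. Rictor, the defining part of the mTOR complex that phosphorylates Akt, was higher, with log2 ratios of 0.71, 0.88 and 0.55. Akt1 was higher at each time (0.48, 0.31 and 0.20), while Rptor, of the other mTOR complex, was lower at ZT8 and ZT12 (-0.19 and -0.31). Of 18 brakes on the pathway, 5, 7 and 6 were higher and 4, 4 and 3 lower, with a median log2 ratio of 0.17, 0.17 and 0.08. The brakes named below are among those called higher, and those called lower are not named, so the named ones do not stand for the list. Inppl1, a lipid phosphatase acting on the product of PI 3-kinase, was higher at every time (0.44, 0.44 and 0.35). Trib3, a pseudokinase that binds Akt, had 0.11 at ZT8, which did not pass, and was higher at ZT12 (1.865) and ZT16 (2.29), and its genotype effect differed between times by the F test (adjusted p = 4.4e-04). Of the brakes, 3 more were called higher at every time and are named after their values were seen. Socs2, a feedback inhibitor of growth hormone signalling, had 3.13, 2.93 and 1.497. Socs3, a feedback inhibitor of cytokine and insulin signalling, had 1.58, 1.1004 and 1.41. Inpp5d, the lipid phosphatase best known from blood cells, had 0.81, 0.92 and 0.78; the Kupffer cell marker sum was higher too, and its part was not tested.

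Of 11 genes of the MAP kinase arm, 1, 1 and 1 were higher and 7, 3 and 4 lower. The higher one was Mapk3, an ERK kinase, with log2 ratios of 0.20, 0.34 and 0.43. Map2k2, a kinase that activates ERK, was lower (-0.28, -0.52 and -0.36), and so was Hras, a GTPase above them (-0.30, -0.32 and -0.45). Of the 2 other FoxO factors, Foxo4 was lower at ZT12 (-1.03 ± 0.37 SE, adjusted p = 0.026) and had -0.56 and -0.91 at ZT8 and ZT16, which did not pass, on a probe well above background on 26 of 36 arrays.

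**Figure D4:**
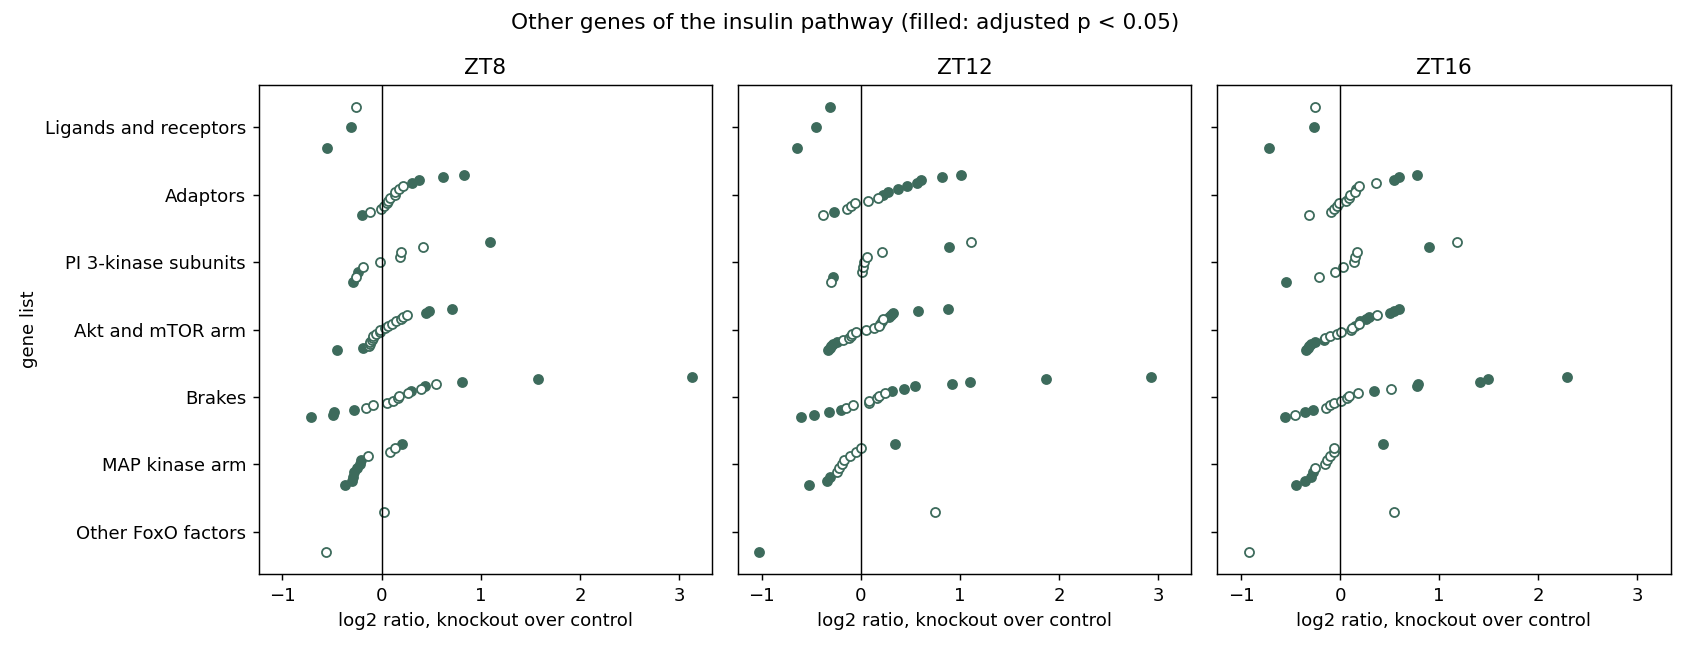
Log2 ratio of knockout over control at ZT8, ZT12 and ZT16 for the 79 other pathway genes measured, 1 point per gene, by list; filled points have an adjusted p below 0.05. All filled points of the ligands and receptors lie below 0, those of the adaptors and brakes lie on both sides at ZT8 and ZT12, and Socs2 at 3.13 is the highest of the brakes at ZT8.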

How the data were processed

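The 10 genes and the pathway and marker lists were chosen with earlier results of these data known. Liver RNA (200 ng) was labelled with Cy3, per the labels' protocols. Per the file headers, the deposited scanner values are fluorescence intensity from Agilent Feature Extraction 10.10.1.1, background subtracted and not scaled between arrays; the deposited spot flags are other values, 0 or 1. The authors' deposited table holds log2 values of 32801 probes, with identical sorted values in all 36 columns (median 7.653). Per the submitters' processing notes limma was used; the steps behind the table are not given in the sources used here. All 36 columns were closer to log2 median spot signal than to processed signal, and wash batch took 0.00813% of a probe's variance there (median), against 4.49% in median signals quantile normalized here. The table served as an alternative.

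From log2 processed intensity the 75th percentile of the array was subtracted. Outlier spots were left out and spots of a probe averaged. Probes well above background on at least 6 of 36 arrays were kept (34769, of which 91 with missing values were dropped), and the brightest probe represents a gene, which gave 22916 genes. The number of arrays limits the precision. limma 3.58.1 in R 4.3.3 (lmFit, eBayes) fitted 6 group means and wash batch (3 batches of 11, 12 and 13 arrays) on all arrays, with 28 residual degrees of freedom and a prior of 2.25. P-values were adjusted by Benjamini-Hochberg over all genes within each comparison, at a threshold of 0.05, and intervals are 95%. Comparisons between times within a genotype, and of the genotype effect between times (moderated F test and pairwise differences), used the same fit. A two-sided exact permutation test over the arrays of a comparison can give no p below 0.00216. The fit was tested on simulated data.

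Named genes are the 10 components, up to 3 called genes of each pathway list with the smallest p of the mean genotype effect, and the 3 genes nearest in pattern to each component whose group means span at least 1 log2 unit; a gene that this rule picks is not reported here. Alternatives were normexp (offset 50), quantile normalization, the authors' table, other filters, wash batch left out, slide as a block, the replicate number as a block, only the groups compared, the mean of a gene's probes, array weights, and each array left out. Promoter regions are from RefSeq (GRCm38.p6), and no position was moved between builds.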

Additional observations from a re-analysis of the deposited data

Results flagged for a closer look

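In 6 of the 60 sets of 6 arrays (10 genes in 6 groups), 1 array lay far from the other 5 by Dixon's criterion, which chance meets in about 1 of 20 sets. Insr was lowest on knockout ZT16 replicate 5, at -3.75, where the others lay between -3.24 and -3.08. Irs1 on knockout ZT8 replicate 3 was 1.43, where the others lay between 2.34 and 2.71; this array stood apart over all genes. Igf1r on control ZT16 replicate 6 was -2.17, above the others at -2.76 to -2.56. Pik3r1 was highest of its group on control ZT8 replicate 5, at 1.85 against 1.53 to 1.65, and on knockout ZT16 replicate 6, at 0.57 against 0.19 to 0.31. Grb10 on knockout ZT8 replicate 1 was -3.56, below the others at -3.08 to -2.87. The genotype effect differed between times for Pik3r1, with an adjusted p of 9.7e-04 in limma's F test, and for Foxo3, at 0.028.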

How the results depend on the processing

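Over 13 alternative settings, 490 of 510 values for the 10 genes (the ratio at each time and the F test) kept their direction and side of the threshold, 5 lost the call, 7 gained one and 8 changed sign; 0 called ratios changed sign. The sign changes were Foxo1 at ZT8 (0.0131 with quantile normalization, 0.019 in the authors' table, 0.0055 with the mean of all probes), Akt2 at ZT12 (0.0261 with quantile normalization, 0.0686 in the authors' table), Akt2 with the mean of all probes at ZT8 (-0.0546) and ZT16 (-0.13), and Grb10 at ZT12 with the mean of all probes (0.23). For ZT16 against ZT8 in knockout the count of 5 called genes became 3 in the authors' table, 3 without a filter on dim probes, 3 with slide as a fixed block, 2 with only the groups compared and 2 with the mean of all probes. For ZT16 against ZT8 in control it became 3 with slide as a fixed block. For ZT12 against ZT8 in knockout it became 1 with only the groups compared and 4 with array weights. For ZT16 against ZT12 it became 0 in control without a filter on dim probes, and in knockout 4 with only probes well above background on all arrays and 5 with the mean of all probes. The F test count became 1 without a filter on dim probes. The pathway count at ZT8 became 21 with the mean of all probes. The cause was not tested.

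Leaving out each array in turn kept 1419 of 1440 values on the same side, with 9 calls lost, 9 gained and 3 signs turned. The counts ranged from 0 to 1 for ZT16 against ZT12 and from 3 to 5 for ZT16 against ZT8 in control. In knockout they ranged from 2 to 5 for ZT12 against ZT8, 2 to 4 for ZT16 against ZT12 and 3 to 6 for ZT16 against ZT8, and for the F test from 1 to 4. Signs turned for Foxo1 at ZT8 (-0.0853 to 0.0086), Irs1 at ZT12 (-0.0123 to 0.11) and Grb10 at ZT12 (-0.20 to 0.0686).

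The replicate numbers showed no clear pairing of arrays. The 90 same-numbered pairs had a median correlation of deviations of -0.00515, beside 0.00432 for 450 differently numbered pairs. Of the 90, 14 were over 0.1, and 8 of 36 arrays correlated best with an array of their own number. Such values cannot exclude a weak pairing. With the replicate block 6, 6 and 7 of the 10 genes were called at ZT8, ZT12 and ZT16, as without it, and 3 in place of 2 for ZT12 against ZT8 in knockout. Signals near background limit the second Grb10 probe, the second Insr probe, the third Foxo3 probe at ZT16 and 2 of the Igf1r probes. The ZT8 call of Grb10 gained with the mean of its probes rests on that second probe.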
